A study of Rattus norvegicus with 10 samples.

Results

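The miRNAs described here are the arms of the miR-199a and miR-214 hairpins, a pair of small RNA genes known from fibroblasts and other mesenchymal cells. They were taken as every mature miRNA in the count files whose name begins with rno-miR-199a or rno-miR-214, and where a miRNA was listed under several precursors its largest count was used. This gave 4 of the 723 mature miRNAs, namely rno-miR-199a-3p, rno-miR-199a-5p, rno-miR-214-3p and rno-miR-214-5p, each listed under a single precursor. The prefix rno, for the rat, is left out of most names below. Of these, 3 passed the filter on low counts and were tested, and miR-214-5p did not pass it. The tissue was analysed in bulk, so that a level shows neither which cells carried a miRNA nor whether the number of such cells or their RNA content differed.

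The counts come from 10 small RNA libraries, 2 in each of 5 groups, all from female Wistar rats in which arthritis had been induced with collagen (CIA). CIA_B was sampled before therapy. MS_E and MS_A were sampled 1 h and 34 days after the start of mechanical stimulation, a needle that was inserted and twirled at points of the lower back and leg and that the labels call AP or acupuncture. PLA_E and PLA_A were sampled 1 h and 34 days after the start of a placebo. Per the methods of the study it was a weekly peritoneal injection of saline, while the supplement gives the stimulation as repeated every other day. The placebo thus differs from the stimulation in site and frequency as well as in kind. No healthy animals are among these libraries, and every group carries the disease. The labels name the tissue as muscle beneath the skin and the methods as subcutaneous tissue around the stimulated points that includes muscle. Whether a library is 1 animal or a pool is not given in the sources used here, so that the spread between libraries may be in part technical.

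A mature miRNA guides a silencing complex to messages that pair with its bases 2 to 8, the seed, and represses them. The hairpins of miR-199a and miR-214 are cut from 1 long transcript, Dnm3os, which runs against the gene of dynamin 3 and is switched on in mesenchyme. Either arm of a hairpin can be loaded, and for many hairpins 1 arm predominates. In connective tissue miR-199a-5p is known to rise with fibroblast activation by TGF-β and to repress caveolin-1. For miR-199a-3p, repression of mTOR and promotion of the growth of heart muscle cells are known. miR-214-3p is known to act in muscle differentiation, where it represses the histone methyltransferase Ezh2, and in bone formation.

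The mature sequences show how far the arms differ in the part that finds targets. They were taken from RefSeq (assembly GRCr8) and are given 5′ to 3′, with the seed in capitals.
miR-199a-3p: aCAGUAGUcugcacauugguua
miR-199a-5p: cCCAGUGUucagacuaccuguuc
miR-214-3p: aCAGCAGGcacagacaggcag
miR-214-5p: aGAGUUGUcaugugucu
The 4 seeds all differ. In GRCr8 all lie on the plus strand of chromosome 13, miR-199a-5p at chr13:77116255-77116277, miR-199a-3p at chr13:77116294-77116315, miR-214-5p at chr13:77121656-77121672 and miR-214-3p at chr13:77121713-77121733. The authors counted on the older assembly rn4. Between the end of miR-199a-3p and the start of the Mir214 hairpin lie 5329 bases, and both hairpins lie inside the gene Dnm3.

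The Mir214 hairpin is shown because its arms were recovered so unequally. With both annotated arms in capitals, miR-214-5p at bases 12 to 28 and miR-214-3p at bases 69 to 89 of 108, it reads as follows.
Mir214: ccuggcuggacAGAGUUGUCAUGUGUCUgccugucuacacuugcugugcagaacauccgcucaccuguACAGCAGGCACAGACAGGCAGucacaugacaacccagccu
The 5p arm is annotated at 17 bases and the 3p arm at 21, against 22 and 23 bases for miR-199a-3p and miR-199a-5p. The RefSeq table used here holds no hairpin sequence for miR-199a, and only its arms are printed.

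The seed is shared by no other miRNA among the 645 of the files that matched a RefSeq sequence, for any of the 4 arms. Bases 2 to 7 of miR-199a-3p are shared with miR-6324, which had at most 2 counts in a library. The seed letters of miR-214-3p stand at another place in miR-24-3p, which was more abundant, with 1242 to 4755 cpm. Those of miR-199a-5p stand in miR-222-5p, which had at most 4 counts. miR-199b, whose 3p arm has the same sequence as miR-199a-3p in mammals that carry it, was not analysed here, and reads from such a copy could not be told apart from miR-199a-3p. On the strand opposite to Mir214 lies the gene of miR-3120, which had 1 count, in PLA_E replicate 1, and 0 in the other 9 libraries.

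Reads assigned to miRNAs ranged from 1513799 in CIA_B replicate 1 to 8926170 in MS_E replicate 1. Levels are given as cpm, counts relative to the library total, which edgeR adjusts for composition with TMM factors (0.675 to 1.41 here). In CIA_B replicate 1, the smallest library, 3 counts correspond to 2.60 cpm. In each group 1 library held much more of the muscle miRNA miR-1-3p, 80399.7 to 122962 cpm against 10115 to 15564 cpm in the other. The 2 libraries of a group thus differ although they share treatment and time. The marker lists for other cells are taken up below where they bear on the members.

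rno-miR-199a-3p was the most abundant of the 4 arms in every library. Its counts, replicate 1 first here and below, were 1509 and 20567 in CIA_B, 11629 and 7883 in MS_E, 10228 and 11895 in MS_A, 17341 and 7743 in PLA_E and 9027 and 12059 in PLA_A. As levels these were 1306 and 3024 cpm in CIA_B, 1795 and 1231 cpm in MS_E, 2426 and 1450 cpm in MS_A, 2324 and 2136 cpm in PLA_E and 2248 and 2198 cpm in PLA_A. The lowest library was thus MS_E replicate 2 and the highest CIA_B replicate 2, 2.46-fold apart, and the 2 libraries of CIA_B spanned nearly the whole range. With levels scaled by library size only, the lowest was CIA_B replicate 1 and the highest PLA_E replicate 1. It ranked between place 26 and place 41 among the miRNAs of a library and took 0.0997% to 0.329% of the reads. In order of the group means the levels were 2229.8 ± 132.7 cpm in PLA_E, 2223 ± 35.4 in PLA_A, 2165 ± 1215 in CIA_B, 1938 ± 691 in MS_A and 1513 ± 399 in MS_E (SD, n = 2 libraries each). No neighbours in that order differed by more than the spread between the libraries. How close the libraries of the stimulated and placebo groups lay depends on the scaling, while CIA_B had the largest SD under both. With library size only, the SD of miR-199a-3p was 31.9 cpm in MS_A and 162 in MS_E, below the 603 in PLA_A, 854 in PLA_E and 1573 in CIA_B.

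rno-miR-199a-5p, the other arm of the same hairpin, was lower, and on the TMM scale it spread more within CIA_B, MS_E and MS_A. It had 191 and 2675 counts in CIA_B, 2882 and 881 in MS_E, 1815 and 1228 in MS_A, 2181 and 932 in PLA_E and 1180 and 1460 in PLA_A. The levels were 165 and 393 cpm in CIA_B, 445 and 138 cpm in MS_E, 431 and 150 cpm in MS_A, 292 and 257 cpm in PLA_E and 294 and 266 cpm in PLA_A. The placebo libraries lay close together between the extremes, while each of the other 3 groups held 1 of the 3 lowest and 1 of the 3 highest libraries of the series. The 2 libraries of a group differed 3.23-fold in MS_E, 2.88-fold in MS_A and 2.38-fold in CIA_B, and 1.14-fold in PLA_E and 1.10-fold in PLA_A. Scaling by library size only brought the stimulated and placebo groups nearer to each other in this, with 1.89-fold in MS_E, 1.67-fold in MS_A, 1.65-fold in PLA_E and 1.52-fold in PLA_A, while CIA_B widened to 3.32-fold. The group means were nearly level, from 291 ± 217 cpm in MS_E over 290.1 ± 198.6 in MS_A, 280.0 ± 19.6 in PLA_A and 279 ± 161 in CIA_B to 275 ± 24.9 in PLA_E (SD, n = 2), and no neighbours in that order differed beyond their spread.

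rno-miR-214-3p was the least abundant arm that was tested. Its counts were 61 and 519 in CIA_B, 637 and 316 in MS_E, 298 and 298 in MS_A, 636 and 156 in PLA_E and 269 and 195 in PLA_A. The levels were 52.8 and 76.3 cpm in CIA_B, 98.3 and 49.3 cpm in MS_E, 70.7 and 36.3 cpm in MS_A, 85.2 and 43.0 cpm in PLA_E and 67.0 and 35.5 cpm in PLA_A. All 5 groups overlapped one another. The order of the means was MS_E with 73.8 ± 34.6 cpm, CIA_B with 64.5 ± 16.6, PLA_E with 64.1 ± 29.8, MS_A with 53.5 ± 24.3 and PLA_A with 51.3 ± 22.2 (SD, n = 2), each step smaller than the spread between the libraries. In 4 of the 5 groups the library numbered 1 was the higher one, and CIA_B was the exception, a count that was the same for miR-199a-3p and for miR-199a-5p. Scaled by library size only, it was again 4 of 5 for miR-214-3p and miR-199a-5p and 2 of 5 for miR-199a-3p.

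**Figure D1:**
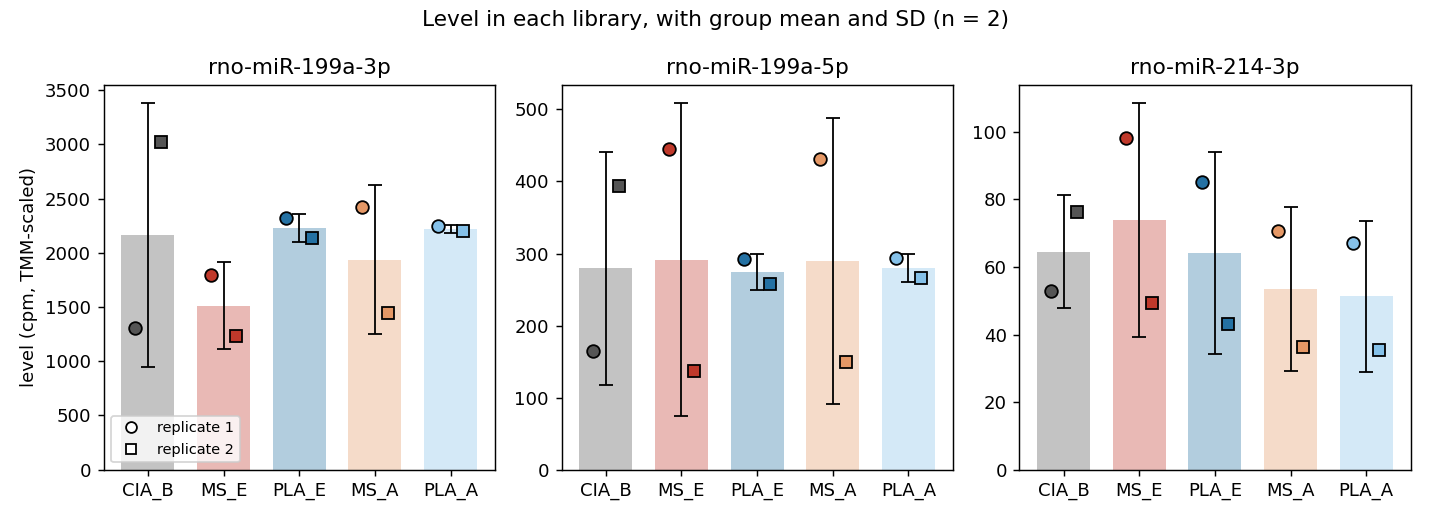
Level of miR-199a-3p, miR-199a-5p and miR-214-3p (cpm, TMM-scaled, linear axes from 0) in the 10 libraries, with circles for replicate 1, squares for replicate 2, and bars with whiskers for the group mean and SD (n = 2). On this scale the 2 libraries of a group lie close together in the placebo groups for both arms of miR-199a and far apart in CIA_B, MS_E and MS_A. With library size only, CIA_B stays far apart, and for miR-199a-3p MS_E and MS_A lie closer together than the placebo groups.

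rno-miR-214-5p was hardly seen. It had 6 counts in MS_E replicate 1, 2 in PLA_E replicate 1, 1 each in PLA_E replicate 2 and PLA_A replicate 1, and 0 in the other 6 libraries, including both of CIA_B. Its 10 counts over all libraries stood against 3385 of miR-214-3p, or 0.295% of the reads on that hairpin. A count of 0 allows up to 3 counts, which is 2.60 cpm in CIA_B replicate 1 and 0.441 cpm in CIA_B replicate 2, so that the 0.926 cpm in MS_E replicate 1 could not be told from absence in the former. Such limits cover counting error only, since reads made by PCR are not independent molecules.

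Set against other miRNAs, the arms of miR-199a differed in steadiness on the TMM scale. Among the 182 tested miRNAs with a mean of at least 100 counts, the median difference between the 2 libraries of a group was 0.60 on the log2 scale. It was 0.54 for miR-199a-3p, at percentile 42.9, 1.25 for miR-199a-5p, at percentile 85.7, and 0.95 for miR-214-3p, at percentile 76.4. Under library size only the difference was 0.49 for miR-199a-3p, 0.74 for miR-199a-5p and 1.00 for miR-214-3p, beside a median of 0.62. Over all 10 libraries the SD of the TMM-scaled log2 level was 0.42 for miR-199a-3p, 0.62 for miR-199a-5p and 0.51 for miR-214-3p, against a median of 0.54 for these 182.

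The comparisons of the design ask whether the tissue changed after stimulation or placebo, whether stimulated and placebo tissue differed at 1 h and at 34 days, and whether that difference depended on time. No change of a member was found in any of the 10. With the calling rule used in the study, which asks for more than a 2-fold change and p under 0.05 without adjustment, the quasi-likelihood test of edgeR called 0 of the 3 members tested in each comparison, and 0 had an unadjusted p under 0.05. limma-voom and DESeq2 also called 0. Of all 359 miRNAs tested, the same thresholds called 6.41% in MS_E, 1.11% in MS_A, 0.557% in PLA_E and 6.96% in PLA_A, each against CIA_B. They called 3.9% in MS_E against PLA_E, 1.95% in MS_A against PLA_A, 4.18% in all groups after therapy against CIA_B, 3.34% in MS against PLA over both times, 4.74% in 34 days against 1 h over both arms of the study, and 3.34% for the interaction of arm and time. With shares this low, 0 of 3 says little about the members. By adjusted p (Benjamini-Hochberg over the 359, in edgeR) 0 miRNAs passed 0.05 in any comparison, and DESeq2 gave at most 8, in MS_E against CIA_B, with no member among them.

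Against CIA_B, whose 2 libraries serve all 4 of these comparisons, miR-199a-3p showed log2 fold changes of -0.52 in MS_E (95% interval -1.63 to 0.60), 0.042 in PLA_E (-1.07 to 1.15), -0.16 in MS_A (-1.27 to 0.95) and 0.038 in PLA_A (-1.07 to 1.15). The groups overlapped in each case. Those of miR-199a-5p were 0.057 in MS_E (-1.50 to 1.61), -0.027 in PLA_E (-1.58 to 1.53), 0.051 in MS_A (-1.51 to 1.61) and 0.00051 in PLA_A (-1.57 to 1.57). Those of miR-214-3p were 0.19 in MS_E (-1.16 to 1.54), -0.012 in PLA_E (-1.36 to 1.33), -0.28 in MS_A (-1.62 to 1.07) and -0.34 in PLA_A (-1.69 to 1.01). All 12 intervals include 0, and each of them also reaches past 2-fold in at least 1 direction, so that changes of that size are not excluded. Signs of values this close to 0 turned with the processing and are not directions.

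Between stimulation and placebo at 1 h, miR-199a-3p was the one member whose groups did not overlap, with 1795 and 1231 cpm in MS_E below 2324 and 2136 cpm in PLA_E. Among all 359 miRNAs, 11.7% did not overlap in this direction. The log2 fold change was -0.56 (SE 0.49; 95% interval -1.68 to 0.56; edgeR adjusted p = 0.871), the smallest unadjusted p of any member being 0.286, here. It was -0.92 without MS_E replicate 1 and -0.31 without MS_E replicate 2. At 34 days the groups overlapped on the TMM scale and the log2 fold change was -0.20 (-1.31 to 0.91), and over both times it was -0.38 (-1.17 to 0.41, adjusted p = 0.917 in edgeR). With library size only the groups did not overlap at 34 days either, with 1638 and 1683 cpm in MS_A below 2959 and 2107 cpm in PLA_A. On that scale 24.8% of all 359 miRNAs did not overlap in this direction at 34 days and 20.6% at 1 h, and the median of all miRNAs at 34 days was -0.34. The log2 fold changes of miR-199a-3p were then -0.61 at 34 days and -0.92 at 1 h, neither past the threshold. The value over both times was below 0 with each alternative of test, scaling, filter and libraries, from -0.76 to -0.23, and passed the threshold with none of them. For miR-199a-5p the log2 fold changes of stimulation against placebo were 0.084 at 1 h (-1.47 to 1.64) and 0.051 at 34 days (-1.51 to 1.61). For miR-214-3p they were 0.20 at 1 h (-1.14 to 1.54) and 0.060 at 34 days (-1.28 to 1.40). These values of both turned below 0 when only library size was used for scaling, and those of miR-199a-5p also with limma-voom and with a replicate block. With library size only, the median of all miRNAs in MS against PLA moved from -0.032 to -0.30.

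Over both arms of the study, 34 days against 1 h gave log2 fold changes of 0.18 for miR-199a-3p (-0.61 to 0.96), 0.011 for miR-199a-5p (-1.09 to 1.11) and -0.39 for miR-214-3p (-1.34 to 0.56, adjusted p = 0.930 in edgeR). The interaction of arm and time was 0.36 for miR-199a-3p (-1.21 to 1.94), -0.034 for miR-199a-5p (-2.23 to 2.17) and -0.14 for miR-214-3p (-2.04 to 1.76). All groups after therapy against CIA_B gave -0.15 for miR-199a-3p (-1.02 to 0.72), 0.020 for miR-199a-5p (-1.21 to 1.25) and -0.11 for miR-214-3p (-1.17 to 0.95). With 2 libraries against 2, an exact permutation test cannot give a two-sided p below 0.333, and none was made.

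**Figure D2:**
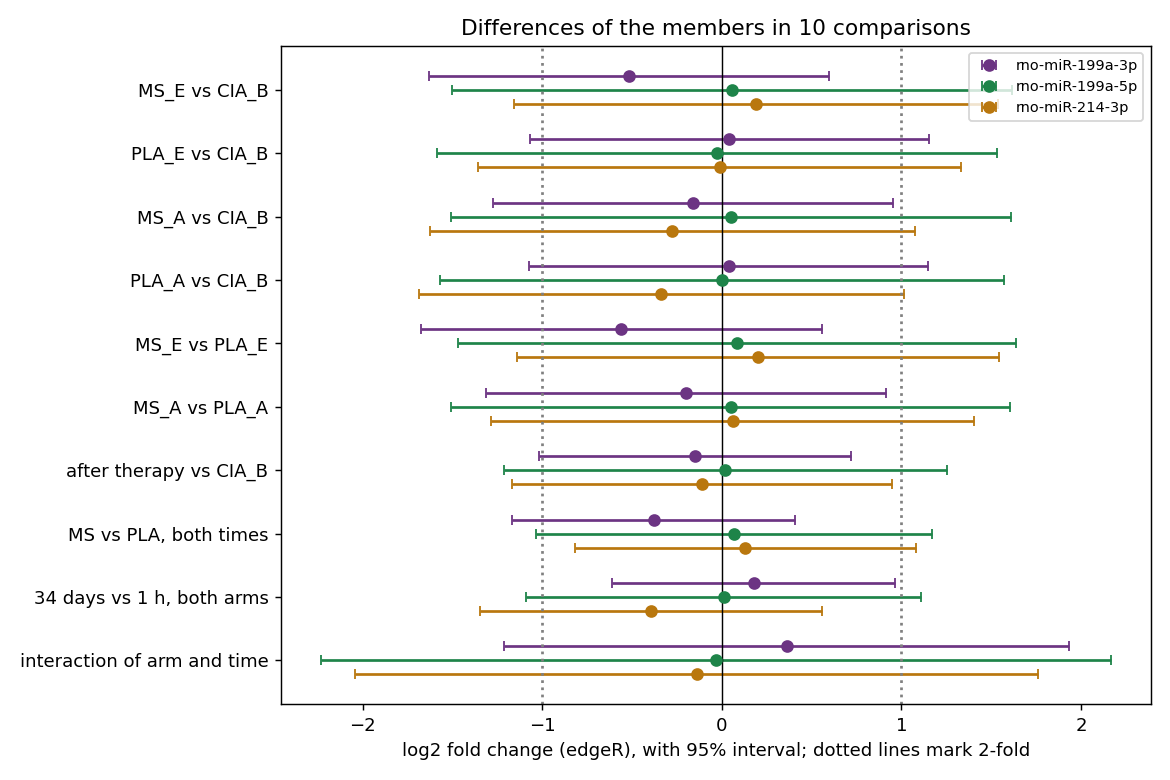
Log2 fold change of the 3 tested members (edgeR, points) with the 95% interval (bars) in the 10 comparisons, with dotted lines at 2-fold. Every interval crosses 0, and the value farthest from 0 is -0.56, of miR-199a-3p in MS_E against PLA_E.

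The arms of the miR-199a hairpin are compared within a library, so that their ratio does not depend on the scaling between libraries. The 3p arm had more reads than the 5p arm in 10 of 10 libraries, 7.90 and 7.69 times as many in CIA_B, 4.04 and 8.95 in MS_E, 5.64 and 9.69 in MS_A, 7.95 and 8.31 in PLA_E and 7.65 and 8.26 in PLA_A. MS_E replicate 1 and MS_A replicate 1 stand below the other 8 libraries, and their partners MS_E replicate 2 and MS_A replicate 2 are the 2 highest. As a share, the 3p arm took 80.1% of the reads on both arms in MS_E replicate 1 (95% exact interval 79.5 to 80.8) and 84.9% in MS_A replicate 1 (84.3 to 85.6), against 88.4% to 90.6% in the other 8. These intervals cover counting error only and not the spread between libraries. MS_E replicate 1 and MS_A replicate 1 were also the libraries with the largest shares of reads on 1 miRNA, miR-10b-5p, with 51.8% and 37.2%, while CIA_B replicate 1 had 34.5% and a ratio of 7.90. The part of that in the ratio was not tested.

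Between groups the ratio did not differ beyond the spread. In limma on the log2 ratio of 121 hairpins with both arms tested, 0 hairpins had an adjusted p under 0.05 (0%) in each of the 10 comparisons. For miR-199a the difference of the log2 ratio was -0.37 in MS_E against CIA_B (SE 0.50; limma adjusted p = 0.982), -0.44 in MS_E against PLA_E (0.50, adjusted p = 0.987) and -0.11 in MS_A against PLA_A (0.50, adjusted p = 0.990). An unadjusted p under 0.05 was reached by 1.65%, 0% and 0.826% of the hairpins in these comparisons, and by miR-199a in none of them. Each difference rests on the 1 low library: without MS_E replicate 1 the first became 0.20 and the second 0.14, and without MS_A replicate 1 the third became 0.29. In PLA_E and PLA_A against CIA_B the differences were 0.062 and 0.030.

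Among hairpins, a predominant 3p arm was common but not the rule. Of the 121, 51 had more reads on the 3p arm over the 10 libraries. The mean log2 ratio of miR-199a was 2.89, or 7.41-fold, a moderate bias next to the median of 4.11 regardless of direction. Of the 41 hairpins with a mean of at least 100 counts in each arm, 8 had a smaller SD of the log2 ratio than miR-199a, 0.37 against a median of 0.53. It was 0.21 without MS_E replicate 1, a library chosen for its low ratio, with no other hairpin treated in the same way.

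**Figure D3:**
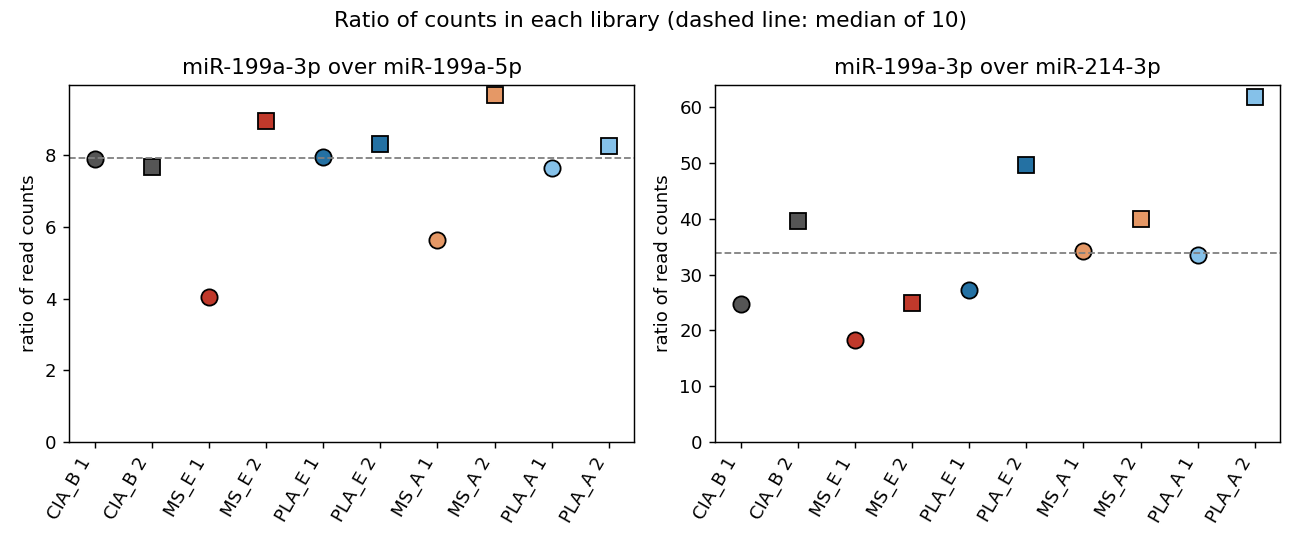
Ratio of read counts in each library (linear axes from 0, circles for replicate 1, squares for replicate 2, dashed line at the median of 10), of miR-199a-3p to miR-199a-5p on the left and of miR-199a-3p to miR-214-3p on the right. On the left MS_E replicate 1 and MS_A replicate 1 lie below the rest, at 4.04 and 5.64, and on the right replicate 2 is above replicate 1 in every group.

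Between the hairpins the proportions were less steady. miR-199a-3p had 24.7 and 39.6 times the reads of miR-214-3p in CIA_B, 18.3 and 24.9 in MS_E, 34.3 and 39.9 in MS_A, 27.3 and 49.6 in PLA_E and 33.6 and 61.8 in PLA_A. In 5 of 5 groups the library numbered 2 had the higher ratio. The numbers come from the labels, which do not say whether they mark a batch or an order of handling, and the part of either was not tested. The ratio of miR-199a-5p to miR-214-3p lay between 2.79, in MS_E replicate 2, and 7.49, in PLA_A replicate 2. Since capture in a library differs between sequences, such ratios are compared between libraries and do not give numbers of molecules.

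Skeletal muscle miRNAs differed between the libraries alongside the members, in a way that depends on the marker and on the scaling. Summed over miR-1-3p, miR-206-3p, miR-133a-3p and miR-133b-3p, known from muscle fibres, they came to 241021 and 91561 cpm in CIA_B, 83894 and 214516 in MS_E, 139683 and 268478 in MS_A, 182298 and 134735 in PLA_E and 188863 and 159965 in PLA_A. On the TMM scale the 3 libraries with the lowest miR-199a-5p, at 138 to 165 cpm, were the 3 with the highest sums, and the library with the most miR-199a-5p, MS_E replicate 1 at 445 cpm, had the lowest sum. In CIA_B, MS_E and MS_A the library with the higher sum had less of miR-199a-3p, of miR-199a-5p and of miR-214-3p. In PLA_E and PLA_A, where the sums differed 1.35-fold and 1.18-fold, it had more of each. That makes 3 of 5 groups with the opposite order for each member. In the placebo groups, though, miR-133a-3p went the other way from the other muscle miRNAs of the list. miR-1-3p was at 90887 and 11313 cpm in PLA_E and 80399.7 and 15564 in PLA_A, higher in replicate 1, while miR-133a-3p was at 70505 and 118939 in PLA_E and 89171 and 139360 in PLA_A, higher in replicate 2. miR-206-3p, at 15857 and 1276 in PLA_E and 14649 and 1143 in PLA_A, was also higher in replicate 1. So was miR-133b-3p, at 5048 and 3207 in PLA_E and 4643 and 3898 in PLA_A. By miR-1-3p alone, the library with more of it had more of each member in 2 of 5 groups. By miR-133a-3p alone, chosen after its values were seen, the opposite order held in 5 of 5 groups for each member. In MS_A, however, miR-133a-3p differed little, at 122982 and 128713 cpm. With library size only, the opposite order by miR-133a-3p held in 3 of 5 for miR-199a-3p and again 5 of 5 for the others. On levels scaled by library size only, the sum gave 1 of 5 groups for miR-199a-3p and 3 of 5 for miR-199a-5p and miR-214-3p. Whether the muscle content of the specimens took part in the differences between libraries was not tested.

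**Figure D4:**
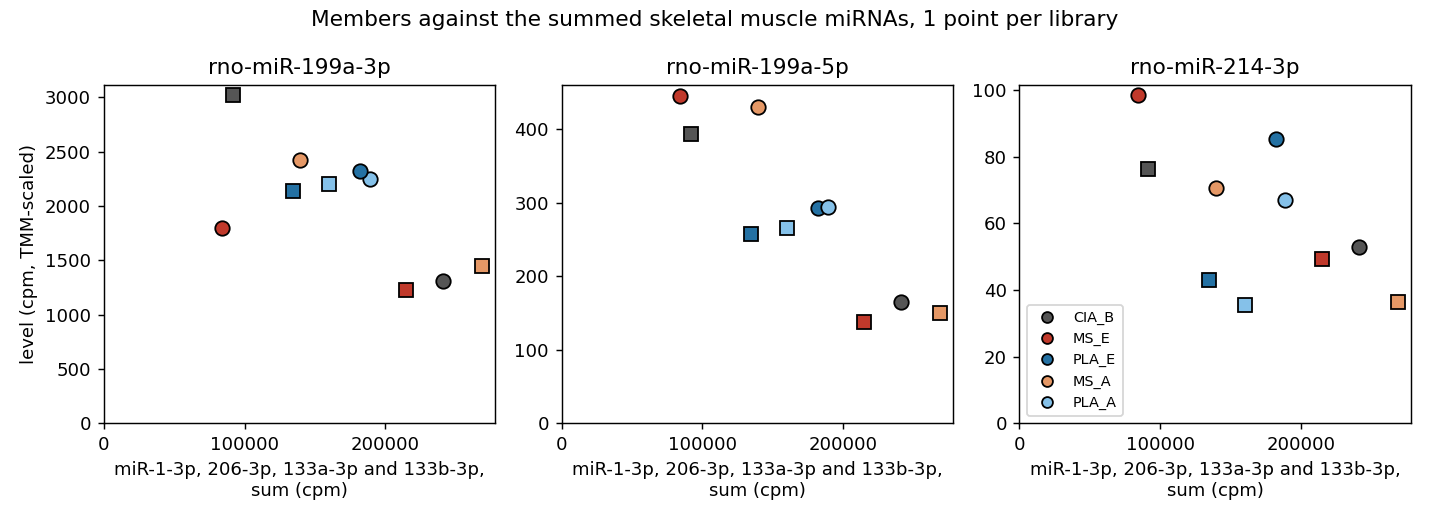
Level of each tested member (cpm, TMM-scaled) against the summed level of 4 skeletal muscle miRNAs (cpm) in the 10 libraries, coloured by group, with circles for replicate 1 and squares for replicate 2. The 3 libraries farthest to the right, MS_A replicate 2, CIA_B replicate 1 and MS_E replicate 2, are the 3 lowest in miR-199a-5p.

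Other cell types were read from their own lists. The leukocyte miRNAs, 5 of the 6 named, summed to 1638 to 3401 cpm in 9 libraries and to 14583 cpm in PLA_A replicate 1, where the members were close to their medians. The epithelial miRNAs, 7 names, ranged from 33.7 cpm in CIA_B replicate 1 to 447 cpm in MS_E replicate 1, and summed to 119 cpm in MS_E replicate 2. On the TMM scale MS_E replicate 1 was the library with the most miR-199a-5p and miR-214-3p. With library size only, CIA_B replicate 2 had the most miR-199a-5p and PLA_E replicate 1 the most miR-214-3p. The endothelial miR-126a arms summed to 4274 cpm in MS_E replicate 1, their lowest, and to 14716 cpm in MS_A replicate 1, their highest. The slow fibre miRNAs ranged from 56.5 to 1025 cpm, the erythroid ones from 17.4 to 88.6, the smooth muscle pair miR-143-3p and miR-145-5p from 26942 to 101413, and the cartilage arms of miR-140 from 321 to 549. Called by the same rule, 4 of the 6 epithelial miRNAs tested were higher and both slow fibre miRNAs lower in MS_E against CIA_B. There 1 of 5 leukocyte and 1 of 3 erythroid miRNAs were also higher. Of all miRNAs tested 6.41% were called in it, and the shares in the other comparisons are given above. Among the epithelial miRNAs called, miR-200a-3p, miR-200b-3p and miR-200c-3p were scarce, with means of 5.65, 4.40 and 3.70 cpm. For scale, 3 counts correspond to 2.60 cpm in CIA_B replicate 1. In PLA_A against CIA_B, 3 of 5 leukocyte miRNAs and 2 of 3 erythroid ones were higher. In MS_A against CIA_B 1 of 5 leukocyte miRNAs was higher. In MS_E against PLA_E 2 of 6 epithelial miRNAs were higher, and in MS_A against PLA_A 2 of 5 leukocyte miRNAs were lower. In all groups after therapy against CIA_B, 2 of 5 leukocyte and 2 of 6 epithelial miRNAs were higher and 2 of 2 slow fibre miRNAs lower. In MS against PLA over both times, 2 of 5 leukocyte miRNAs and 1 of 2 slow fibre miRNAs were lower. In 34 days against 1 h, 1 slow fibre, 1 leukocyte and 1 erythroid miRNA were higher and 1 epithelial miRNA lower, and 1 leukocyte and 1 epithelial miRNA were lower in the interaction. Of the skeletal muscle, endothelial, smooth muscle and cartilage lists 0 were called in each of the 10 comparisons. The part of these cells in the levels of the members was not tested.

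Other miRNAs known from mesenchymal cells and matrix were present at levels on either side of those of the members. Of the 25 names in that list, 24 were tested. By mean level, 7 of these 24 lay above miR-199a-3p (2014 cpm), 17 above miR-199a-5p (283 cpm) and 19 above miR-214-3p (61.5 cpm). The highest were miR-10b-5p with a mean of 261030.5 cpm, miR-22-3p with 115684, miR-143-3p, which marks smooth muscle and fibroblasts, with 59174, miR-10a-5p with 41676 and miR-27b-3p with 21315. Since muscle and mesenchymal miRNAs stood side by side in every library, the levels of miR-199a and miR-214 cannot be assigned to fibroblasts.

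In that list 0 of 24 were called in MS_E, PLA_E and MS_A against CIA_B, in MS_E against PLA_E, in MS_A against PLA_A, in 34 days against 1 h and for the interaction. Against CIA_B, 2 (8.33% of the list, beside 6.96% of all miRNAs tested) were called higher in PLA_A, beside the 3 of 5 leukocyte and 2 of 3 erythroid miRNAs called higher there, and with a median log2 fold change over the list of 0.023 beside 0.11 over all miRNAs tested. miR-21-5p, known to rise in fibrosis, was at 1461 and 3066 cpm in CIA_B and 5310 and 6659 in PLA_A, which is 1.40 on the log2 scale (SE 0.54; edgeR adjusted p = 0.543). miR-29b-3p, known to repress collagens, was at 23.4 and 19.6 cpm in CIA_B and 65.5 and 75.3 in PLA_A, or 1.70 on the log2 scale (SE 0.66; edgeR adjusted p = 0.543). In neither did the groups overlap, as was the case in this direction for 20.9% of all miRNAs tested. Over all groups after therapy against CIA_B, 1 was called, which is 4.17% of the list beside 4.18% of all miRNAs tested and beside the slow fibre, leukocyte and epithelial miRNAs called there. It was miR-34a-5p, with 9.52 and 17.5 cpm in CIA_B and 20.2 to 71.5 in the 8 libraries after therapy (log2 difference 1.54, SE 0.66; edgeR adjusted p = 0.932). In MS against PLA over both times, 1 was called, which is 4.17% of the list beside 3.34% of all miRNAs tested and beside the leukocyte and slow fibre miRNAs called there, so that the share of the list is near that of all miRNAs in each of these 3 comparisons. It was miR-10b-5p, 1.70 higher on the log2 scale (SE 0.72; edgeR adjusted p = 0.850). Its levels of 713499 cpm in MS_E replicate 1 and 551575 cpm in MS_A replicate 1 stood apart from 143089.9 and 87816 in their partners, which lay within the 70918 to 174440 cpm of the 4 placebo libraries. MS_E replicate 1 and MS_A replicate 1 are the 2 libraries that also had the low arm ratio. Before therapy, CIA_B had 452283 and 205315 cpm, above those partners and all 4 placebo libraries. The arm ratio of CIA_B replicate 1, the higher of these, was 7.90.

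The miRNAs whose pattern was most like that of each member were found by Pearson's r of the log2 levels over the 10 libraries, among 358 others. For miR-199a-3p these were let-7i-5p (r = 0.90), miR-125b-1-3p (0.85), miR-488-3p (0.85), miR-340-5p (0.82) and let-7e-5p (0.81). For miR-199a-5p they were miR-182 (0.89), miR-221-3p (0.89), miR-340-5p (0.87), miR-9a-5p (0.86) and miR-125b-1-3p (0.83). For miR-214-3p they were miR-374-5p (0.75), miR-221-5p (0.72), miR-183-5p (0.72), miR-92b-3p (0.71) and miR-146b-5p (0.67). Spearman's rho for these ranged from 0.49 to 0.87. Without the 2 libraries farthest from the median of the member, r ranged from 0.44 to 0.92 and that of miR-340-5p with miR-199a-3p went from 0.82 to 0.49.

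No member was the nearest neighbour of another. miR-199a-5p stood at place 5 for miR-199a-3p, and miR-199a-3p at place 7 for miR-199a-5p, with r = 0.81 and rho = 0.71, and r was 0.62 without MS_E replicate 2 and CIA_B replicate 1, the 2 libraries farthest from its median. miR-214-3p stood at place 21 for miR-199a-5p, with r = 0.69 and rho = 0.73, and at place 78 for miR-199a-3p, with r = 0.39 and rho = 0.43. For miR-214-3p, in turn, miR-199a-5p stood at place 5, and miR-199a-3p at place 46. The r of miR-214-3p with miR-199a-3p was 0.69 without PLA_A replicate 2 and MS_E replicate 1, the 2 libraries farthest from the median of miR-214-3p, and 0.39 without MS_E replicate 2 and CIA_B replicate 1, the 2 farthest from that of miR-199a-3p. With library size only, r was 0.80 between the arms of miR-199a, 0.60 between miR-199a-3p and miR-214-3p and 0.71 between miR-199a-5p and miR-214-3p. These are descriptions over 10 libraries that share the division by muscle miRNA within each group and a common scaling, and they carry no test.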

How the data were processed

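Libraries were prepared from total RNA with the TruSeq small RNA kit and sequenced on a HiSeq instrument. The authors called bases with CASAVA 1.8, trimmed adapters, discarded short reads, aligned to rn4 with Bowtie and counted against rat miRBase precursors with miRDeep2. The deposited values are whole read counts per mature miRNA and precursor, without normalization. A series-wide table was left out, since none of its 20 value columns could be matched to a label by name. Of 723 mature miRNAs, 34 have several precursors, and their largest count was kept.

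Members and marker lists were chosen with earlier results of these data known. TMM factors and quasi-likelihood tests come from edgeR 4.0.16 (R 4.3.3), run on the counts with all 10 libraries in 1 fit, a mean for each group and a prior count of 2, for the 359 miRNAs that reached 1 cpm in 5 or more libraries. Intervals of fold changes use the standard error and degrees of freedom of that test. Arm ratios were log2 values with 0.5 counts added, tested in limma 3.58.1. Intervals of shares are exact binomial at 95%, for counting error only. Named miRNAs are the members, those that share a seed, the 5 most correlated with each member, and from the mesenchymal list those called and the highest by mean cpm. Depth ran from 1513799 to 8926170 counts, a 5.90-fold range. The libraries of each group differed by more than counting error, with a chi-square of 1797 to 8500 for each degree of freedom. The fits were tested on simulated data. Alternatives were limma-voom, DESeq2 1.42.0, other scalings, filters and libraries, and a replicate block. Figures were made with matplotlib 3.10.9.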

Additional observations from a re-analysis of the deposited data

Results flagged for a closer look

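One result meets a rule for a closer look. miR-214-5p, which no comparison uses because it did not pass the filter on low counts, had 6 counts in MS_E replicate 1, above the 3 counts that a count of 0 allows, while both libraries of CIA_B had 0. Relative to depth, its 0.926 cpm lies above the limit of 0.441 cpm in CIA_B replicate 2 and below the limit of 2.60 cpm in CIA_B replicate 1, so that it could not be told from the level in the latter. MS_E replicate 1 is also the deepest library, with 8926170 reads on miRNAs, and its partner MS_E replicate 2 had 0 counts.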

How the results depend on the processing

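Under the alternatives of test, scaling, filter and libraries, 0 of 3 members were called in each of the 10 comparisons (205 values), and of 615 fold changes of the members 0 passed the thresholds, with a smallest unadjusted p of 0.0864 and a smallest adjusted p of 0.567 over edgeR, limma and DESeq2. What changed were signs, in 137 of the 615 and among 27 of the 30 fold changes, and the cause was not tested. The exceptions, with 1 sign under every alternative, were miR-199a-3p in MS_E against PLA_E and in MS against PLA over both times, and miR-214-3p in 34 days against 1 h. Their sizes moved with single libraries: the first was -0.92 to -0.31 with each library left out in turn, lowest without MS_E replicate 1 and highest without MS_E replicate 2, the second -0.57 to -0.23, lowest without MS_E replicate 1 and highest without MS_A replicate 2, and the third -0.70 to -0.11, lowest without MS_A replicate 1 and highest without PLA_E replicate 1. Of all miRNAs tested, the number called over the alternatives was 13 to 41 in MS_E, 1 to 9 in PLA_E, 2 to 12 in MS_A and 9 to 47 in PLA_A against CIA_B, 2 to 35 in MS_E against PLA_E, 1 to 14 in MS_A against PLA_A, 3 to 20 in all groups after therapy against CIA_B, 3 to 23 in MS against PLA, 7 to 28 in 34 days against 1 h and 3 to 17 for the interaction. Under the settings of the report these counts were 23, 2, 4, 25, 14, 7, 15, 12, 17 and 12. Depth limits miR-214-5p throughout and miR-214-3p in CIA_B replicate 1, with 61 counts.

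The log2 fold changes that changed sign had these values. With limma-voom, miR-199a-5p had -0.051 in MS_E, 0.098 in PLA_E and -0.024 in MS_A against CIA_B, -0.15 in MS_E against PLA_E, -0.15 in MS_A against PLA_A and -0.15 in MS against PLA. With DESeq2, miR-199a-3p had -0.00022 in PLA_E and -0.083 in PLA_A against CIA_B, and miR-199a-5p had -0.076 in MS_A, -0.12 in PLA_A and -0.062 in all groups after therapy against CIA_B and -0.074 in 34 days against 1 h. With the size factors of DESeq2 in edgeR these 6 were -6.7e-05, -0.082, -0.077, -0.12, -0.062 and -0.074. With library size only, miR-199a-5p had -0.14 in MS_E, 0.28 in PLA_E and -0.23 in MS_A against CIA_B, -0.42 in MS_E against PLA_E, -0.47 in MS_A against PLA_A, -0.45 in MS against PLA and -0.069 in 34 days against 1 h. On that scale miR-214-3p had 0.41 in PLA_E, 0.00096 in PLA_A and 0.024 in all groups after therapy against CIA_B, -0.29 in MS_E against PLA_E, -0.44 in MS_A against PLA_A and -0.36 in MS against PLA. Without a filter, miR-214-3p had 0.0080 in PLA_E against CIA_B, miR-199a-3p had -0.033 in PLA_A against CIA_B, and miR-199a-5p had -0.077 in PLA_A and -0.017 in all groups after therapy against CIA_B and -0.031 in 34 days against 1 h. With a mean of at least 100 counts, miR-199a-5p had 0.064 in PLA_E, -0.035 in MS_A and -0.086 in PLA_A against CIA_B and -0.21 in 34 days against 1 h, miR-214-3p had 0.090 in PLA_E against CIA_B, and miR-199a-3p had -0.052 in PLA_A against CIA_B and -0.022 in 34 days against 1 h. With only the libraries compared, PLA_A against CIA_B gave -0.0055 for miR-199a-3p and -0.048 for miR-199a-5p. With counts summed over precursors, miR-199a-5p had -0.049 in MS_A, -0.050 in PLA_A and -0.014 in all groups after therapy against CIA_B and -0.071 in 34 days against 1 h, and miR-199a-3p had -0.0078 in PLA_A against CIA_B. Chosen after the data were seen, a term for the library with more miR-1-3p of each group gave miR-199a-5p 0.17 in PLA_E against CIA_B, -0.17 in MS_E against PLA_E, -0.18 in MS_A against PLA_A and -0.18 in MS against PLA, and miR-214-3p 0.018 in PLA_E against CIA_B. Also chosen then, limma-voom on only the libraries compared gave miR-199a-5p -0.014 in MS_E, 0.086 in PLA_E and -0.021 in MS_A against CIA_B, -0.070 in MS_E against PLA_E and -0.14 in MS_A against PLA_A.

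The replicate numbers do not pair the libraries by the labels. Same-numbered libraries deviated together, with a correlation over 0.1, in 4 of 10 pairs of groups (from -0.54 to 0.59). Of the 10 libraries, 8 correlated best with their own number. The correlations are of deviations from the group mean, in which the 2 libraries of a group mirror each other. Both libraries therefore always give the same answer, and the 8 of 10 counts each group through both of them. With the replicate block, 0 members were called, and miR-199a-5p had -0.16 in MS_E, -0.16 in MS_A, -0.10 in PLA_A and -0.14 in all groups after therapy against CIA_B, -0.030 in MS_E against PLA_E, -0.056 in MS_A against PLA_A and -0.043 in MS against PLA. The block left the differences of the arm ratio as they were, for example -0.37 in MS_E against CIA_B, as each group holds both numbers.

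With each library left out in turn, a group left with 1 library being assumed to vary like the others, the log2 fold changes that changed sign covered these ranges. For miR-199a-3p they were -1.04 to 0.21 in MS_E, -0.51 to 0.77 in PLA_E, -0.75 to 0.57 in MS_A, -0.54 to 0.77 in PLA_A and -0.71 to 0.58 in all groups after therapy against CIA_B, -0.56 to 0.073 in MS_A against PLA_A, -0.040 to 0.33 in 34 days against 1 h and -0.037 to 0.71 for the interaction. For miR-199a-5p they were -1.11 to 0.82 in MS_E, -0.59 to 0.73 in PLA_E, -0.89 to 0.81 in MS_A, -0.59 to 0.76 in PLA_A and -0.55 to 0.78 in all groups after therapy against CIA_B, -1.06 to 0.69 in MS_E against PLA_E, -0.84 to 0.57 in MS_A against PLA_A, -0.51 to 0.37 in MS against PLA, -0.49 to 0.55 in 34 days against 1 h and -0.99 to 1.09 for the interaction. For miR-214-3p they were -0.46 to 0.60 in MS_E, -0.59 to 0.40 in PLA_E, -0.80 to 0.047 in MS_A and -0.43 to 0.18 in all groups after therapy against CIA_B, -0.45 to 0.77 in MS_E against PLA_E, -0.41 to 0.57 in MS_A against PLA_A, -0.19 to 0.44 in MS against PLA and -0.71 to 0.52 for the interaction. The arm ratio changed sign in 12 of its 150 values, each time with a library left out, and 0 had an adjusted p under 0.05 (smallest 0.781 in limma). Its differences covered -0.95 to 0.20 in MS_E, -0.47 to 0.31 in MS_A, -0.026 to 0.085 in PLA_A and -0.23 to 0.054 in all groups after therapy against CIA_B, -1.01 to 0.14 in MS_E against PLA_E, -0.50 to 0.29 in MS_A against PLA_A, -0.56 to 0.016 in MS against PLA, -0.15 to 0.42 in 34 days against 1 h and -0.24 to 0.90 for the interaction.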
